A study of Mus musculus with 3 samples.

Results

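The Tie, Kit and PDGF signalling genes described here are 10 genes, chosen by name as the receptors of endothelium, blood progenitors and mesenchyme with their ligands: the receptors Tek, Tie1, Kit, Pdgfra and Pdgfrb and the ligands Angpt1, Angpt2, Kitl, Pdgfa and Pdgfb. All 10 were found among the 23397 genes of the deposited transcript files, and 9 of them reached an expressed level, as did 11080 genes in all. Expressed means at least 1 FPKM (fragments per kilobase of transcript, scaled to sequencing depth) in any library; Angpt1 stayed under it.

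RNA came from endothelial cells that mouse embryonic stem cells formed in embryoid bodies, which are floating aggregates of differentiating cells, at day 4.75. The cells were sorted as positive for Tie2 and CD31 and negative for CD41. Of the 3 libraries, 1 was of wild type cells (WT), 1 of cells labelled SclKO, a knockout of Scl (current symbol Tal1), and 1 of cells labelled Gata1&2KO. No treatment other than this culture is named for any of them, and the sources used here do not give how many clones or cultures a library pools. With 1 library per group there is no replicate check, no test and no p-value, and each difference below describes these libraries.

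The receptors are grouped here by 3 kinds of cell, and the grouping does not assign the level of a receptor to a cell type. Tie2, encoded by Tek, and its relative Tie1 are receptor tyrosine kinases of endothelium; Angpt1 activates Tie2 to keep vessels stable, and Angpt2 can oppose it. Kit is a receptor of blood progenitors and of germ and pigment cells, among others, and binds stem cell factor, encoded by Kitl. PDGF receptors alpha and beta are made by mesenchyme and by the mural cells around vessels, among other cells. Endothelium makes PDGF-B, which draws mural cells to new vessels.

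Depth implied by the deposited bounds was 28.3M to 50.3M fragments (M, mega). Tal1, the gene targeted in SclKO, had 51.0 FPKM in WT, 1.59 in SclKO and 38.7 in the third library. Gata1 had 4.64 FPKM in WT, 5.66 in the third library and a listed value of 0 in SclKO, and Gata2 had 12.05 FPKM in WT, 5.81 in SclKO and 44.9 in the third library. Since neither Gata gene lay below WT in the third library, the knockout that its label names is not visible in these levels, and it is called the library labelled Gata12KO. Loss of 1 exon might escape a level taken over the whole transcript. Of the sort's other antigens, Pecam1 (CD31) had 48.3, 50.4 and 66.5 FPKM, and Itga2b (CD41), the antigen sorted against, had 22.8, 0.333 and 17.6.

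The promoter windows of the paired Tie receptors are given because Tie1 and Tek have different ratios of SclKO to WT. Each is the 250 bases before the start of transcription, from RefSeq on GRCm38.p6, with capitals on matches to GATA (in either direction) and to CANNTG, the E-box that Scl and its partners bind. The window of Tek is chr4:94739039-94739288 on the forward strand, and that of Tie1 is chr4:118489850-118490099 on the reverse strand.
Tek: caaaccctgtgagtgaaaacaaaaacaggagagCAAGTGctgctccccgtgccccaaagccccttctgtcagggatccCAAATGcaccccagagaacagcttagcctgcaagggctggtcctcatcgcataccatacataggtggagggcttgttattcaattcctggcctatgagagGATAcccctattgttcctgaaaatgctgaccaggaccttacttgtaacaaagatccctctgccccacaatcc
Tie1: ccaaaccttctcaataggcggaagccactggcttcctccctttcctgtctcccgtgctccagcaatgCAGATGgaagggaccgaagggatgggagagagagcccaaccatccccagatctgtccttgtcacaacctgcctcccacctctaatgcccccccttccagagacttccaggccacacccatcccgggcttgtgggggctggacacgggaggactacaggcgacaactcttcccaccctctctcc
Tek holds 1 match to GATA and 2 to CANNTG, and Tie1 holds 0 and 1. Of 32851 promoter windows of the same length, 53.6% hold a GATA match and 66.2% a CANNTG match on either strand, so these letters are common, and a match is no evidence of binding. For the ETS core GGAA, which 93.4% of windows hold, Tek has 2 matches and Tie1 has 7. The promoter table matched 6 of the 10 genes. Kit, Kitl and Pdgfa hold 0 of both GATA and CANNTG, and Pdgfra holds 1 CANNTG. Angpt1, Angpt2, Pdgfrb and Pdgfb had no entry.

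The forms of Kit differ by 12 bases, 4 codons, at the end of exon 9, in the part of the receptor just outside the membrane. In mm9 these bases are chr5:76035172-76035183 on the forward strand. They are shown in capitals with 30 bases on each side, as the GENCODE M21 transcripts give them.
Kit with the 12 bases: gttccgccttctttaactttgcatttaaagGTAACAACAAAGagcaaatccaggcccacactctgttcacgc
Kit without them: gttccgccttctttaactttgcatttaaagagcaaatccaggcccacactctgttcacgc

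In SclKO against WT, calls went both ways. The receptor Tie1 and the ligand Pdgfb were lower, the ligand Angpt2 and the receptor Pdgfrb were higher, and Tek, Kit, Kitl, Pdgfra and Pdgfa lay between the limits. A gene is called higher or lower here when its ratio, log2((FPKM + 1)/(FPKM + 1)), reached 1 in size, that is 2-fold, and the libraries' deposited bounds lay apart. By this rule 4 of 9 expressed members were called, beside 6.36% of all expressed genes, 2.12% higher and 4.24% lower. Comparing the library labelled Gata12KO with WT, 0 of 9 members were called, beside 4.51% of all genes, 0.767% higher and 3.75% lower. With the library labelled Gata12KO set against SclKO, 2 members were higher and 3 lower, beside 7.14% of genes, 3.38% higher and 3.75% lower. The comparisons share libraries, so they are not independent of each other.

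**Figure D1:**
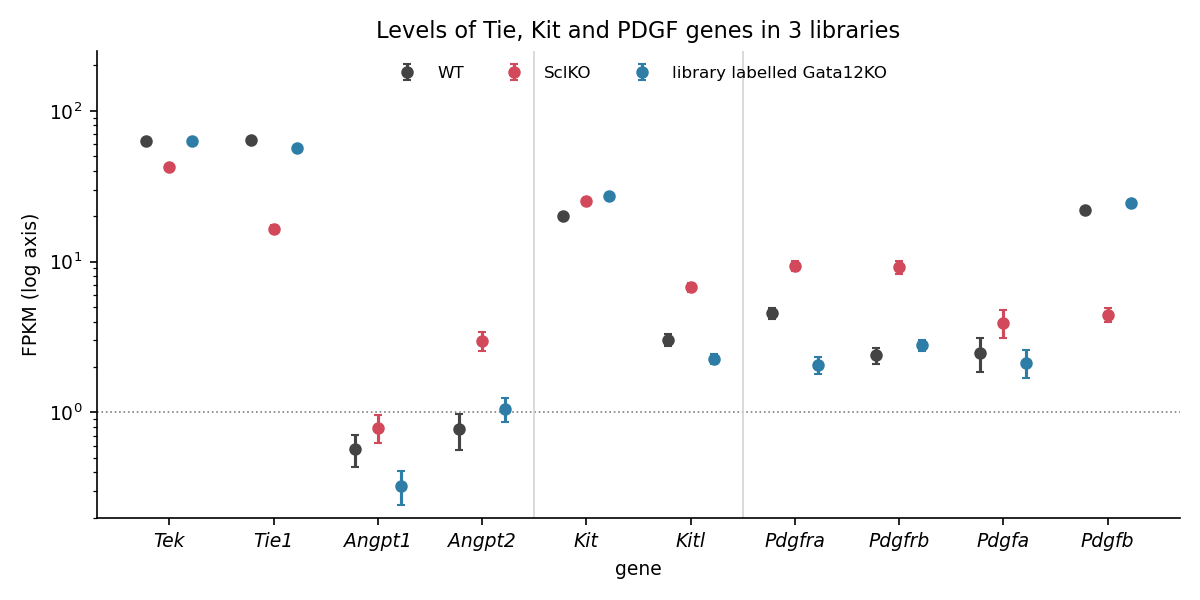
Levels of the 10 genes in FPKM on a log axis, with WT in grey, SclKO in red and the library labelled Gata12KO in blue. Points are single libraries and bars the deposited bounds, summed over entries for Kit, Pdgfra and Pdgfrb. Bars cover counting error, can be wider than it for these summed genes, and cover no variation between replicates. The dotted line is 1 FPKM. In SclKO, Tie1 and Pdgfb sit below both other libraries, while Angpt2, Kitl, Pdgfra and Pdgfrb sit above them.

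Tek encodes the Tie2 on which cells were sorted. In mm9 its 23 exons span chromosome 4 from 94405991 to 94541630, forward strand. Tek had 62.9 FPKM (bounds 61.5 to 64.2) in WT, 42.4 (41.2 to 43.5) in SclKO and 62.9 (61.9 to 64.0) in the library labelled Gata12KO. SclKO was the low library, with bounds apart from both others, while those of WT and the library labelled Gata12KO overlapped. The log2 ratio was -0.56 in SclKO against WT and 0.00 in the library labelled Gata12KO, the latter under 0 once the trend with transcript length was removed (-0.05). Since the gate selects on this gene's product, the cells entering each library were chosen by it, and its level is that of cells past the gate.

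Tie1 lies on the same chromosome (118143796 to 118162454, reverse strand, 23 exons), and its product binds Tie2 and modifies its signal. Tie1 had 64.2 FPKM (bounds 62.7 to 65.7) in WT, 16.6 (15.8 to 17.4) in SclKO and 56.4 (55.3 to 57.5) in the library labelled Gata12KO. SclKO held 3.87-fold less than WT, a log2 ratio of -1.89, and 143 of 11080 genes had a lower one. The library labelled Gata12KO had a log2 ratio to WT of -0.18, which turned positive when libraries were scaled to their summed FPKM (0.50) or to that of transcripts of 300 nt or longer (0.12).

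The level of one receptor over the other within a library does not depend on scaling between libraries. Tek over Tie1 was 0.980 (0.937 to 1.02 from the bounds) in WT, 2.56 (2.37 to 2.76) in SclKO and 1.12 (1.08 to 1.16) in the library labelled Gata12KO. The Tie receptors stood at nearly the same level in WT, and in SclKO Tek led. By rank among 10992 expressed genes with a transcript of 300 nt or longer, Tek went from 875 in WT to 1212 in SclKO and Tie1 from 854 to 3074.

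Of the angiopoietins, Angpt1 was low throughout. Its 9 exons lie on chromosome 15, 42256271 to 42508341, reverse strand. It had 0.569 FPKM (bounds 0.433 to 0.705) in WT, 0.793 (0.623 to 0.963) in SclKO and 0.325 (0.244 to 0.407) in the library labelled Gata12KO, on 64 to 87 fragments. Angpt1 lay under 1 FPKM in each library, so it was not counted, and the bounds of WT and SclKO overlapped.

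Angpt2 (chromosome 8, 18691337 to 18741551, reverse strand, 9 exons) had 0.774 FPKM (bounds 0.567 to 0.981) in WT, 3.00 (2.57 to 3.43) in SclKO and 1.06 (0.868 to 1.25) in the library labelled Gata12KO. Only in SclKO did it stand apart from the other libraries' bounds. The ratio of SclKO to WT was 3.87-fold in FPKM and 1.17 on the log2 scale, on 56 and 193 fragments. Against the receptor, Tek over Angpt2 was 81.2 in WT, 14.1 in SclKO and 59.4 in the library labelled Gata12KO.

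Of 15 other genes of the Tie pathway, 10 were expressed, and in SclKO against WT 2 were lower, 0 higher and 8 between, with a median log2 ratio of -0.39 beside -0.03 over all expressed genes. Ptprb, the endothelial phosphatase that removes phosphate from Tie2, had 7.05 FPKM in WT, 1.17 in SclKO and 8.89 in the library labelled Gata12KO. The nitric oxide synthase Nos3 had 17.7, 2.31 and 21.4 FPKM. Both were lower in SclKO than in either other library. They make up 20% of the 10, beside 6.36% of all expressed genes called in SclKO against WT. None of the 10 was called in the library labelled Gata12KO against WT, near the 4.51% of all expressed genes for so short a list.

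In SclKO many endothelial markers were lower, as Tie1 was. Tek, whose product the sort selected for, was not called, and Angpt2 was higher. Of 15 endothelial markers, all expressed, 9 were lower and 0 higher in SclKO, with a median log2 ratio of -1.41. Pecam1 (log2 ratio 0.06), whose product CD31 was also selected for, and Plvap (0.31) were not lower there. The summed level of the markers was 807 FPKM in WT, 330 in SclKO and 913 in the library labelled Gata12KO. The most abundant were Egfl7 (184, 92.6 and 223 FPKM), Ecscr (166, 44.0 and 124) and Cdh5 (116, 42.9 and 141). None was listed at 0 in any library, and the share of the 15 called in SclKO was 60%, beside 6.36% of all expressed genes. In sorted pools, fewer cells of a type and less RNA per cell cannot be told apart. What part these markers play in the levels of Tie1 and Pdgfb was not tested.

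Kit (chromosome 5, 75971012 to 76052746, forward strand, 21 exons) is given as 2 entries. Their sum was 20.1 FPKM (bounds 19.0 to 21.1) in WT, 25.1 (23.7 to 26.6) in SclKO and 27.4 (26.3 to 28.5) in the library labelled Gata12KO. WT was the lowest, and the bounds of the other libraries, summed over the entries, overlapped each other. The log2 ratio to WT was 0.31 for SclKO and 0.43 for the library labelled Gata12KO, neither of them called. With libraries scaled to their summed FPKM the second became 1.11 and was called higher. When only the more abundant entry was taken, the SclKO ratio turned to -0.31.

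The forms had different orders. The form without the 12 bases had 19.4 FPKM (bounds 18.6 to 20.1) in WT, 15.4 (14.7 to 16.2) in SclKO and 20.6 (20.0 to 21.3) in the library labelled Gata12KO. The form with them had 0.724 (0.440 to 1.01), 9.69 (9.02 to 10.4) and 6.78 (6.34 to 7.21). As a share of Kit the form with the 12 bases made up 3.605% in WT, 38.5% in SclKO and 24.7% in the library labelled Gata12KO. The entries differ only at these bases and at the first 4 bases of exon 1. Few reads of 50 nt reach them, so the split is an estimate by Cufflinks and the shares are uncertain.

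The ligand Kitl (chromosome 10, 99478458 to 99563046, forward strand, 10 exons) had 3.02 FPKM (bounds 2.75 to 3.29) in WT, 6.75 (6.32 to 7.17) in SclKO and 2.27 (2.09 to 2.46) in the library labelled Gata12KO. SclKO was the high library, with all bounds apart. The FPKM ratio of SclKO to WT was 2.23-fold, yet the log2 ratio with a pseudocount of 1 was 0.95, just inside the limit. With a pseudocount of 0.1 it was called higher (1.13), as it was with scaling to transcripts of 300 nt or longer (1.07). Kit over Kitl was 6.64 (5.79 to 7.66) in WT, 3.72 (3.30 to 4.20) in SclKO and 12.1 (10.7 to 13.6) in the library labelled Gata12KO. The receptor led its ligand in each library, and least so in SclKO.

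Of 18 other genes of the Kit pathway, 13 were expressed, and in SclKO against WT 5 were lower, 1 higher and 7 between, with a median log2 ratio of -0.25. The lower ones were the paired transcription factors Stat5a (8.82 FPKM in WT, 1.77 in SclKO) and Stat5b (15.9 and 5.30), the phosphatases Ptpn6 (6.03 and 1.85) and Inpp5d (3.03 and 0.908), and the kinase Lyn (2.83 and 0.775). The part of blood cells in these levels was not tested. The protease Mmp9, which can release Kitl from the membrane, was the higher one, with 0.503 FPKM in WT, 5.36 in SclKO and 0.568 in the library labelled Gata12KO. In SclKO against WT the share of the 13 called was 46.2%, beside 6.36% of all expressed genes. In the library labelled Gata12KO against WT, 0 of 13 were called, near the 4.51% of all expressed genes for so short a list. The bounds of Stat5b (15.6 FPKM), Ptpn6 (5.22) and Lyn (2.63) overlapped those of WT there, while Stat5a (5.92) and Inpp5d (2.03) lay below WT with bounds apart.

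Many blood progenitor markers were lower than WT in SclKO and in the library labelled Gata12KO, while the level of Kit lay above WT in each. Of 16 such markers 13 were expressed, and 12 were lower in SclKO and 10 in the library labelled Gata12KO, with median log2 ratios of -2.77 and -1.68. The shares called were 92.3% in SclKO and 76.9% in the library labelled Gata12KO, beside 6.36% and 4.51% of all expressed genes. The summed level of the blood progenitor markers was 259 FPKM in WT, 11.2 in SclKO and 49.8 in the library labelled Gata12KO. The most abundant were the embryonic globins Hbb-bh1 (76.8, 0.258 and 5.66 FPKM) and Hba-x (71.3, 0.0881 and listed at 0), and then Itga2b. Related globin genes can share reads. Ptprc, the antigen CD45 of white cells, was listed at 0 in WT and SclKO. Kit is also made by germ cells and stem cells: of 12 pluripotency and germ cell markers 4 were expressed, and their summed level was 12.2, 11.6 and 7.83 FPKM, led by Dppa5a, Pou5f1 and Utf1. Dppa5a was called, lower in the library labelled Gata12KO than in WT, which is 25% of the 4 beside 4.51% of all expressed genes. The part of these cells in the level of Kit was not tested.

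Among relatives of Kit in the class III receptor family, Csf1r was listed at 0 in WT and SclKO and had 0.0268 FPKM in the library labelled Gata12KO, while Flt3 had 0.0182 in WT and was listed at 0 in the others. Of their ligands, Flt3l was lower in SclKO, with 9.63 FPKM in WT, 1.45 in SclKO and 5.92 in the library labelled Gata12KO. Csf1 lay between, at 1.84, 2.50 and 2.19 FPKM. Of the 2 expressed genes of this list, 50% were called in SclKO against WT, beside 6.36% of all expressed genes. Csf1r, Flt3 and Csf1 were named after their values were seen.

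**Figure D2:**
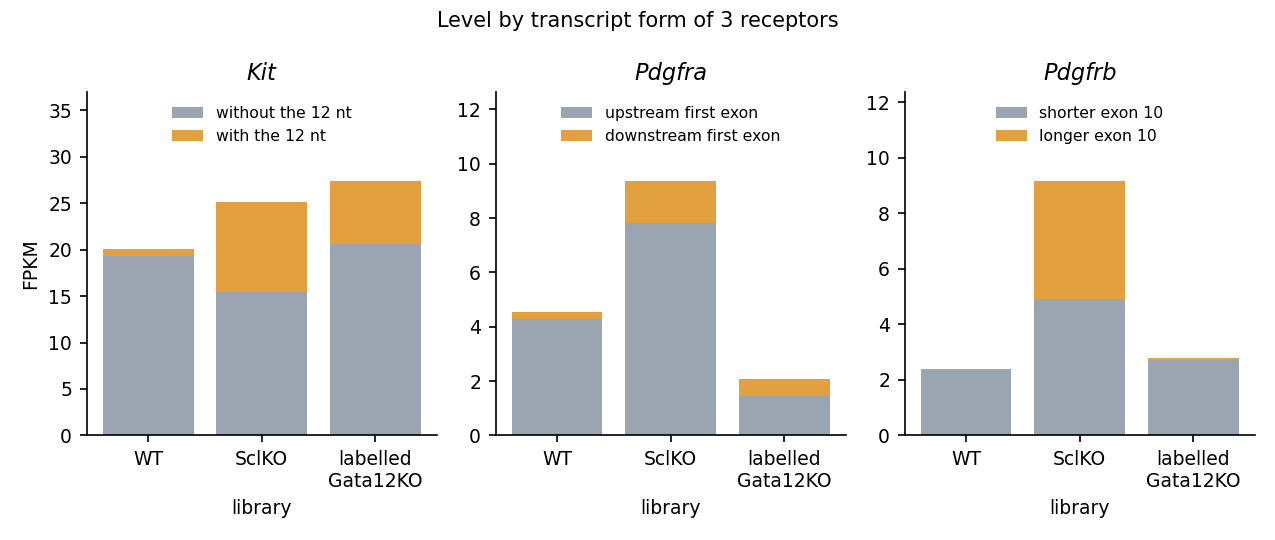
Level in FPKM of each deposited transcript form of Kit, Pdgfra and Pdgfrb, stacked to the gene's sum, in the 3 libraries. The orange forms are small in WT, and those of Kit and Pdgfrb reach 38.5% and 46.3% of the gene in SclKO.

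Pdgfra (chromosome 5, 75548316 to 75594229, forward strand, 23 exons) had 4.56 FPKM (bounds 4.15 to 4.96) in WT, 9.36 (8.67 to 10.1) in SclKO and 2.06 (1.80 to 2.33) in the library labelled Gata12KO. The 3 libraries stood apart, with SclKO high and the library labelled Gata12KO low. Against WT the FPKM ratio was 2.06-fold in SclKO, a log2 ratio of 0.90, and the library labelled Gata12KO had a log2 ratio of -0.86, neither of which reached the limit. The SclKO ratio passed it with a pseudocount of 0.1 (1.02) or with scaling to transcripts of 300 nt or longer (1.03). Set against SclKO, the library labelled Gata12KO had a log2 ratio of -1.76, which was called lower. Its entries start from different first exons, 75548316 to 75548482 and 75552191 to 75552374. The downstream start made up 5.85% of the gene in WT, 16.6% in SclKO and 29.4% in the library labelled Gata12KO.

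Pdgfrb (chromosome 18, 61204804 to 61244721, forward strand, 23 exons) had 2.39 FPKM (bounds 2.11 to 2.68) in WT, 9.16 (8.30 to 10.0) in SclKO and 2.79 (2.54 to 3.04) in the library labelled Gata12KO. SclKO was high, and the other libraries overlapped. The log2 ratio was 1.58 in SclKO against WT, a 3.83-fold difference in FPKM, and 65 of 11080 genes had a higher log2 ratio. Its 2 entries differ by 3 bases at the edge of exon 10. The longer form was 1.51% of the gene in WT, 46.3% in SclKO and 2.14% in the library labelled Gata12KO, a split as uncertain as that of Kit. Taking the shorter form alone, with 2.36 FPKM in WT and 4.92 in SclKO, ended the call, with a log2 ratio of 0.82, as it did for the library labelled Gata12KO set against SclKO (-0.67).

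The alpha receptor's preferred ligand Pdgfa (chromosome 5, 139452929 to 139470907, reverse strand, 6 exons) had 2.48 FPKM (bounds 1.86 to 3.09) in WT, 3.94 (3.12 to 4.77) in SclKO and 2.13 (1.69 to 2.58) in the library labelled Gata12KO, on 65 to 91 fragments. SclKO was the highest, by a log2 ratio of 0.51, with its lower bound just past the upper bound of WT.

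Pdgfb (chromosome 15, 79826306 to 79845238, reverse strand, 7 exons) had 22.0 FPKM (bounds 21.0 to 23.0) in WT, 4.45 (3.97 to 4.92) in SclKO and 24.6 (23.8 to 25.5) in the library labelled Gata12KO. SclKO was low by 4.95-fold against WT, a log2 ratio of -2.08, which 119 of 11080 genes went below. The library labelled Gata12KO differed from WT by 0.16 on the log2 scale.

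The ligand Pdgfb stood above its receptor in WT and below it in SclKO. Pdgfb over Pdgfrb was 9.20 (7.83 to 10.9) in WT, 0.485 (0.396 to 0.593) in SclKO and 8.84 (7.84 to 10.0) in the library labelled Gata12KO. For the alpha pair, Pdgfa over Pdgfra was 0.544 (0.376 to 0.745) in WT, 0.421 (0.310 to 0.550) in SclKO and 1.03 (0.724 to 1.44) in the library labelled Gata12KO.

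Of 18 other PDGF pathway genes, 16 were expressed, and in SclKO against WT 1 was higher, 1 lower and 14 between, with a median log2 ratio of 0.26. Lrp1, an endocytic receptor that binds Pdgfrb, was the higher one, with 5.70 FPKM in WT, 12.5 in SclKO and 5.48 in the library labelled Gata12KO. Slc9a3r2, a scaffold for membrane proteins, was the lower one (15.0, 4.72 and 8.12). Nrp1, a co-receptor, had 56.4, 113 and 38.0 FPKM, a log2 ratio of 0.99 in SclKO against WT, and was called lower in the library labelled Gata12KO than in SclKO. Pdgfc, a further ligand of the alpha receptor named here after its values were seen, had 1.09, 2.25 and 0.796 FPKM. In SclKO against WT the share of the 16 called was 12.5%, beside 6.36% of all expressed genes. None of the 16 was called in the library labelled Gata12KO against WT, near the 4.51% of all expressed genes for so short a list.

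In SclKO the PDGF receptors and many mesenchymal markers stood above WT. In the library labelled Gata12KO, Pdgfra was below WT and Pdgfrb was not, while the sum of mesenchymal markers was below WT. Of 14 such markers 10 were expressed, 5 of them higher and 0 lower in SclKO, with a median log2 ratio of 0.99, and their summed level was 49.1 FPKM in WT, 134 in SclKO and 34.5 in the library labelled Gata12KO. The most abundant were Snai2 (11.3, 31.8 and 5.36 FPKM), Twist2 (11.5, 24.5 and 5.61) and Cdh11 (4.46, 25.9 and 2.84). Pax1 was listed at 0 in WT and SclKO. Against WT, 50% of the 10 were called in SclKO, beside 6.36% of all expressed genes. In the library labelled Gata12KO 30% were, beside 4.51%. For the library labelled Gata12KO against WT, 2 of the 10 were higher, Foxf1 (0.722 FPKM in WT, 2.53 in that library) and Foxc2 (1.97 and 6.14), and 1 was lower, Col1a1 (9.66 and 4.19), so the calls went both ways while the sum was below WT. Of 12 mural cell markers 6 were expressed, and 0 were called in SclKO against WT. Against WT 2 of the 6 (33.3%) were lower in the library labelled Gata12KO, Acta2 and Rgs5. Their summed level was 95.7, 126 and 40.1 FPKM, led by Acta2 (42.1, 55.1 and 11.7), Rgs5 (32.1, 39.6 and 12.4) and Des (13.2, 19.6 and 6.50). The defining mural genes Kcnj8 and Cspg4 were listed at 0 in WT, and Kcnj8 in each library. Endoderm is another source of Pdgfra, and 5 of 13 measured endoderm markers were expressed. Their sum was 16.4, 17.7 and 18.9 FPKM, led by Dab2, Sox17 and Trf. Sox17 (4.34, 2.09 and 7.93 FPKM) followed the order of the endothelial marker Sox7 (48.3, 21.9 and 87.0). The sum may therefore not be of endoderm alone. In the library labelled Gata12KO against SclKO, Sox17 was called higher and Trf lower, 40% of the 5 beside 7.14% of all expressed genes. In SclKO against WT, Trf was the 1 called, higher (0.899, 3.98 and 0.597 FPKM), 20% of the 5 beside 6.36%. The part of mesenchymal or mural cells in the level of Pdgfrb was not tested.

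**Figure D3:**
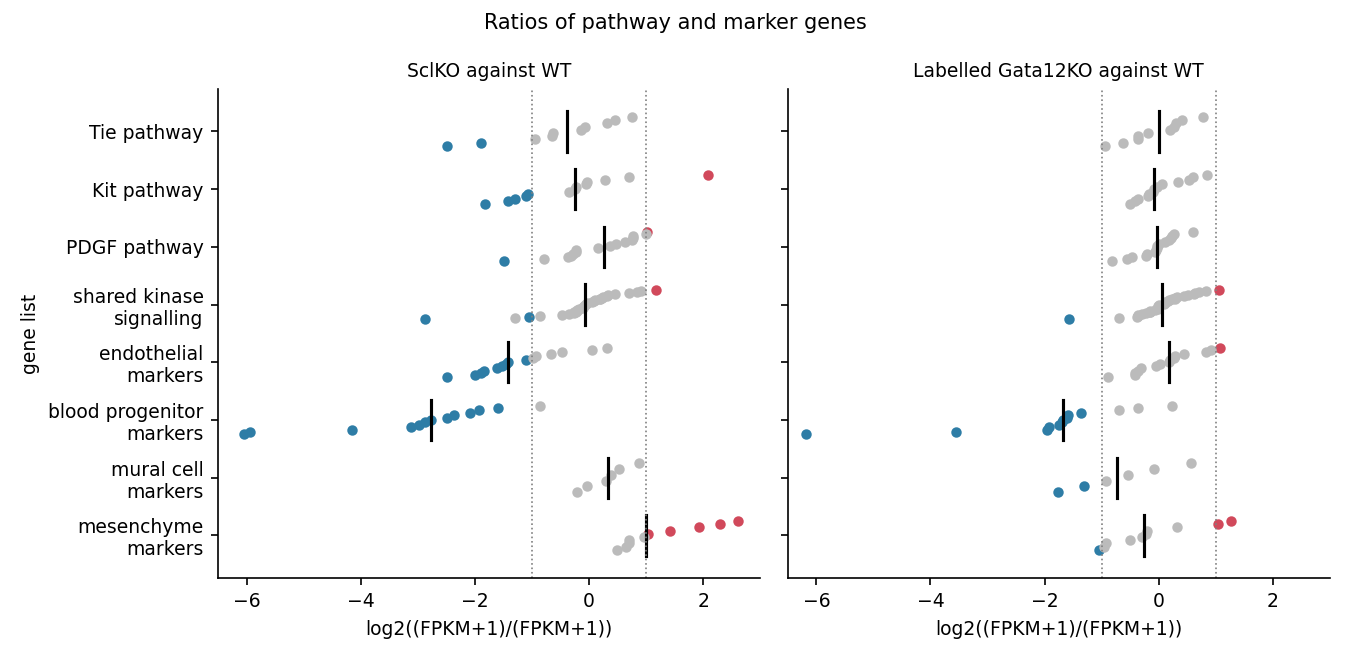
Log2 ratios of expressed genes of 4 pathway lists and 4 marker lists, for SclKO (left) and the library labelled Gata12KO (right) against WT. Each point is a gene, red where called higher, blue where called lower and grey between, and the black bar is the list's median. In SclKO the endothelial and blood medians lie at -1.41 and -2.77 and the mesenchyme median at 0.99.

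Of 32 genes of signalling shared by receptor tyrosine kinases, all expressed, 2 were lower, 1 higher and 29 between in SclKO against WT, a median of -0.07. The share called was 9.38%, beside 6.36% of all expressed genes, and for the library labelled Gata12KO against WT it was 6.25%, beside 4.51%. The lower ones were the phospholipase Plcg2 (14.9 FPKM in WT, 1.17 in SclKO, 4.34 in the library labelled Gata12KO) and the exchange factor Vav3 (17.1, 7.70 and 19.6). Spred1, which inhibits the Ras pathway, was the higher one (3.21, 8.43 and 6.44). For the library labelled Gata12KO against WT, Plcg2 was lower and Plcg1 higher (6.42 FPKM in WT, 14.5 in that library), with 30 between. Against SclKO, Pik3r2, a regulatory subunit of PI3 kinase, was lower in the library labelled Gata12KO (7.55 in SclKO and 3.07).

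**Figure D4:**
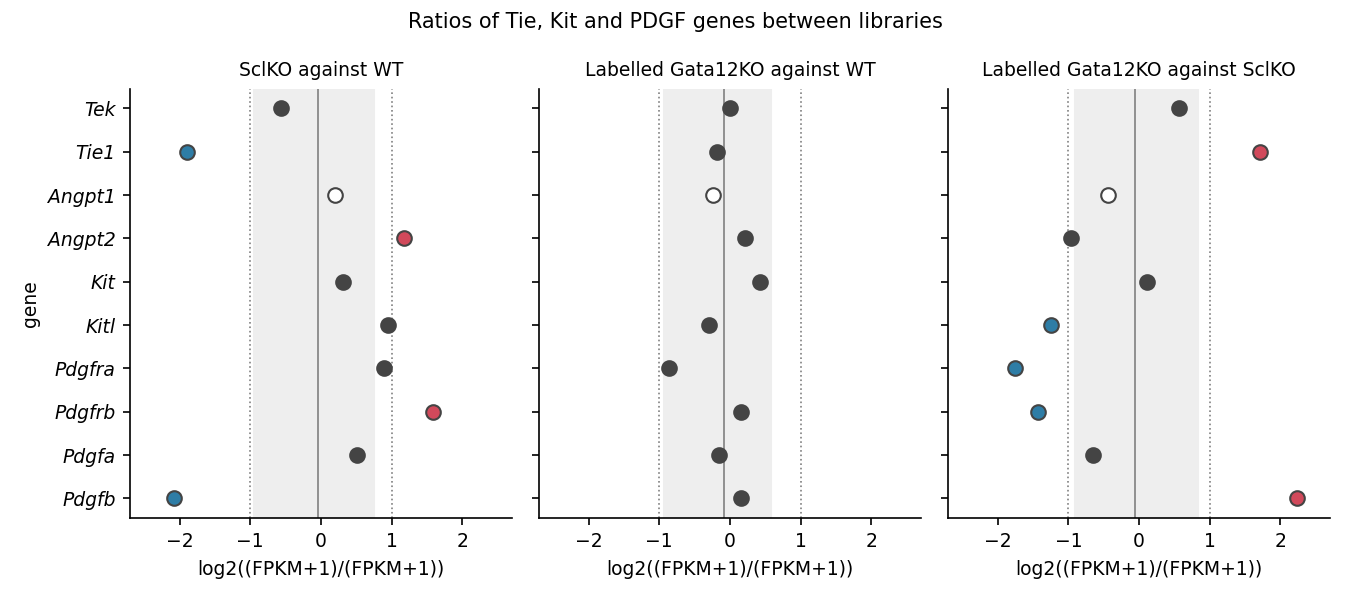
Log2((FPKM + 1)/(FPKM + 1)) of the 10 genes in the 3 comparisons. Red is called higher, blue lower, dark grey between, and open circles are under 1 FPKM; dotted lines mark 2-fold and the shaded band the middle 90% of expressed genes around their median. In SclKO against WT, Pdgfb (-2.08) and Tie1 (-1.89) lie left of the band and Pdgfrb (1.58) and Angpt2 (1.17) right of it.

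Between WT and the library labelled Gata12KO, Pdgfra had the largest ratio in size of the 9 expressed members (-0.86), followed by Kit (0.43), while the median over all expressed genes was -0.08. Pdgfra was called lower when the length trend was removed (-1.003), with a pseudocount of 0.1 (-1.11), or when its more abundant entry alone was taken (-1.11). Tek, Angpt2, Pdgfrb and Pdgfa overlapped WT in their bounds. Scaling to summed FPKM shifted that library up by 0.69 on the log2 scale, which turned Tie1, Kitl and Pdgfa positive.

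Relative to SclKO, the library labelled Gata12KO had Tie1 (1.71) and Pdgfb (2.24) higher and Kitl (-1.24), Pdgfra (-1.76) and Pdgfrb (-1.42) lower, while Kit (0.12) overlapped in bounds. Angpt2 (-0.96) lay just inside the limit, and was called lower with a pseudocount of 0.1 (-1.42). Scaling to summed FPKM left 1 of the 3 lower calls, Pdgfra, and added Tek (1.37) to the higher ones.

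By level, the order of receptors differed between libraries. In WT it was Tie1 and Tek, whose bounds overlapped, then Kit, Pdgfra and Pdgfrb. In SclKO it was Tek, Kit, Tie1 and then Pdgfra and Pdgfrb, whose bounds overlapped. The library labelled Gata12KO had Tek, Tie1, Kit, Pdgfrb and Pdgfra. Relative to Tek in its own library, Pdgfrb stood at 0.0380 (0.0329 to 0.0436) in WT, 0.216 (0.191 to 0.243) in SclKO and 0.0443 (0.0397 to 0.0491) in the library labelled Gata12KO. Kit relative to Tek was 0.319, 0.593 and 0.435.

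Pdgfra, Kit and the VEGF receptor gene Kdr are neighbours on chromosome 5, and are grouped here with mesenchyme, blood and endothelium in turn. In the files no other gene lies between Pdgfra and Kdr than Kit, which starts 377 kb after Pdgfra ends and ends 277 kb before the nearer end of Kdr. The 3 did not move alike. Kdr had 42.1 FPKM (bounds 41.1 to 43.1) in WT, 31.6 (30.7 to 32.6) in SclKO and 96.3 (95.1 to 97.5) in the library labelled Gata12KO. So SclKO was highest in Pdgfra and lowest in Kdr, and the library labelled Gata12KO the reverse. Kit over Kdr was 0.477 (0.442 to 0.514) in WT, 0.794 (0.727 to 0.865) in SclKO and 0.285 (0.270 to 0.299) in the library labelled Gata12KO. Of 8 listed neighbours, Kdr included, 7 were expressed. None of the 7 was called in SclKO against WT, beside 6.36% of all expressed genes. Kdr alone was called, higher, in each comparison with the library labelled Gata12KO, beside 4.51% of genes against WT and 7.14% against SclKO. In the wider window plotted, Rasl11b, named after its values were seen, had 3.23, 5.52 and 1.34 FPKM, and was called lower in the library labelled Gata12KO than in SclKO (-1.48), as Pdgfra was.

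**Figure D5:**
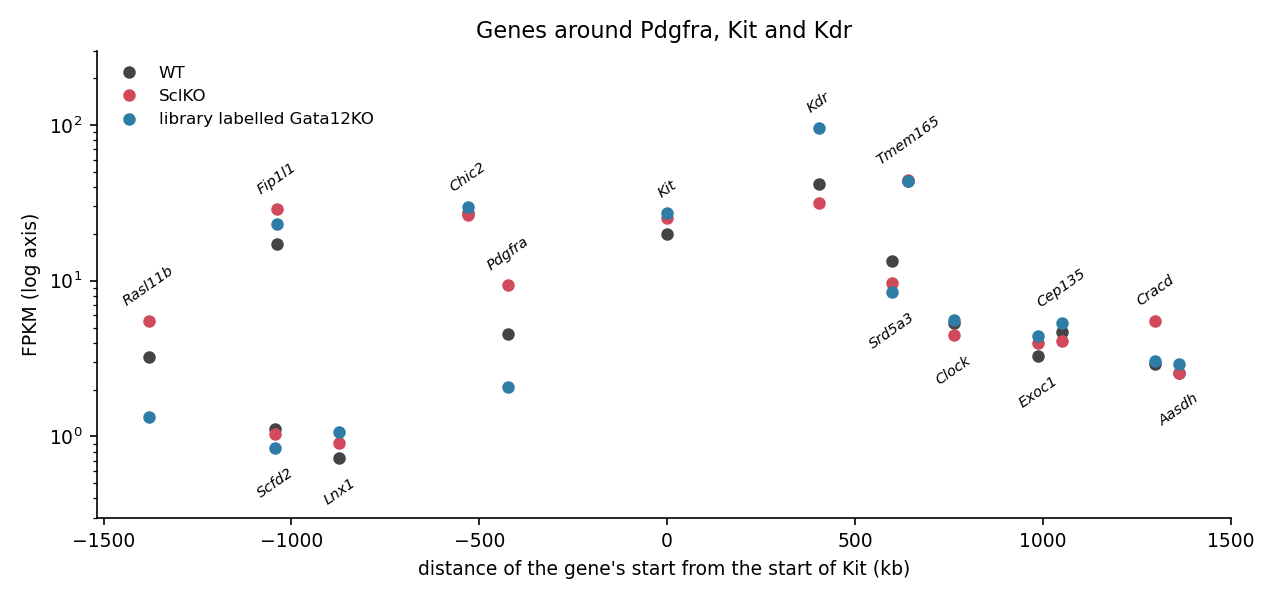
Level in FPKM (log axis) of genes of at least 1 FPKM within 1000 kb of the stretch from Pdgfra to Kdr, by distance of the gene's start from the start of Kit in kb. Points are single libraries, with WT in grey, SclKO in red and the library labelled Gata12KO in blue. SclKO is the highest library at Pdgfra and the lowest at Kdr, and the library labelled Gata12KO the lowest and the highest.

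Genes with the pattern nearest to Tek, Kit and Pdgfrb were found by the distance between centred log2(FPKM + 1) values over the 3 libraries, among 7375 genes reaching 5 FPKM. With 3 libraries such a likeness is a description only. Nearest to Pdgfrb were Unc5b, a netrin receptor of endothelium (6.33, 21.8 and 7.52 FPKM, distance 0.04), Chpf (1.32, 5.57 and 1.64, distance 0.08) and the histone gene H2ac18, whose near-identical copies make its value uncertain. Tek had Ppp2r3c (9.75, 6.34 and 9.92), St3gal1 and Capza2, and Kit had Wdr3, Traf4 and Cks1b.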

How the data were processed

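RNA-seq transcript files of 3 libraries, 1 per group, were used, with groups taken from the labels. Values are FPKM with lower and upper bounds, written by Cufflinks per the file headers and deposited by the authors. Per the submitters' processing notes the tools were TopHat2 2.0.4, Cufflinks 2.0.1 and Cuffdiff. Those notes list mm9 and hg19 as builds and do not say which served which step. Library kit: Nugen Encore Complete, 50 nt reads, per the labels' protocols. Strand use in counting: not given in the sources used here.

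Entries were joined by position and exon structure, and 134 of 30123 whose names differed between files were left out. Of 29610 RefSeq accessions, 29030 were named from the RefSeq gene table (GRCm38.p6) and 173 from GENCODE M21. A gene is the sum over its entries, and its bounds are the sums of their bounds. Coordinates are those of the files (mm9); promoters are from RefSeq GRCm38.p6. Ratios use a pseudocount of 1, genes of at least 1 FPKM and a 2-fold limit with bounds apart, and no scaling between libraries. Depth was fitted from the bounds of genes with 1 entry, taken as 2 Poisson standard deviations wide on each side. Of these entries with at least 100 reads, 94.3% to 94.4% fell within 1% of the fit. Bounds cover no variation between replicates. For most genes with 1 entry they cover counting error alone, and for Kit, Pdgfra and Pdgfrb the summed bounds can be wider.

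The members, lists and named-gene rule were chosen with earlier results of these data known: all members, called list genes, the 3 most abundant markers of each list, and the 3 nearest patterns. Only examples of the lists are printed. Alternatives were the pseudocount, minimum, fold limit, 3 scalings, removal of the length trend (running median of 501 genes) and the most abundant entry. Python 3.11.15, pandas 2.3.3 and numpy 2.4.6 were used.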

Additional observations from a re-analysis of the deposited data

How the results depend on the processing

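No paired analysis was possible because each group has 1 library. Across 8 alternatives the 4 called members of SclKO against WT kept their direction, and Tie1, Pdgfb and Angpt2 kept their call. The number of members higher there, 2 as reported, became 4 with a pseudocount of 0.1, with scaling to transcripts of 300 nt or longer and at 1.5-fold (Kitl and Pdgfra were added), and 1 when the most abundant entry stood for a gene (Pdgfrb was lost). In the library labelled Gata12KO against WT, 0 became 1 lower (Pdgfra) with a pseudocount of 0.1, the length trend removed, the most abundant entry or 1.5-fold, and 1 higher (Kit) with scaling to all summed FPKM. Against SclKO, 3 lower became 1 with that scaling and 5 at 1.5-fold.

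Over all genes, the lower share of calls in SclKO against WT went from 66.7% to 53.2% with scaling to transcripts of 300 nt or longer. In the library labelled Gata12KO against WT it went from 83.0% to 44.2%, to 8.03% with scaling to all summed FPKM, to 71.3% by median ratios and to 51.5% without the length trend. Against SclKO it went from 52.6% to 5.28% with scaling to all summed FPKM and to 38.9% with scaling to transcripts of 300 nt or longer. The scaling to all summed FPKM moved the median gene to -0.14, 0.51 and 0.65 in the 3 comparisons, and that to transcripts of 300 nt or longer to 0.09, 0.17 and 0.08. At 1.5-fold the calls were 2122, 2079 and 2126 in the 3 comparisons, against 705, 500 and 791. With a pseudocount of 0.1 they were 1219, 943 and 1285. With scaling to all summed FPKM they were 1358 and 2158 in the comparisons with the library labelled Gata12KO. Angpt1, Angpt2 and Pdgfa rest on 56 to 193 fragments, which limits their precision.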
